A study of Mus musculus with 4 samples.

Results

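A set of 10 genes of protein folding in the endoplasmic reticulum were followed through 4 Drop-seq libraries of cultured mouse kidney cells. They are 10 of the 17391 genes in the count table and were taken from a list. Hspa5, Hsp90b1, Calr, Canx, Pdia3, Pdia4, Pdia6, P4hb and Sdf2l1 serve many client proteins and are called the 9 general chaperones here. Serpinh1 serves collagen. All 10 were in the table, and 9 of them reached 100 CPM, counts scaled to a library total of 1000000, in every library treated with transforming growth factor-β (TGF-β). Sdf2l1 stayed under 20 CPM throughout.

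Each group was 1 library from a primary culture of kidney cells labelled Gli1+, from male mice aged 12 weeks, and no genotype or strain was given beyond that label. The culture labelled 0 h was harvested after 2 h in serum-free medium and received no TGF-β. The other 3 cultures had the same 2 h without serum and then 1 ng/ml TGF-β for 6 h, 12 h or 24 h. No untreated culture was sampled at the later times, so hours in TGF-β and hours without serum cannot be told apart. With 1 library a time point there is no replicate check and no test, and every ratio below describes the libraries compared. Each value in parentheses is an exact 95% interval for counting error alone.

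Chaperones of the endoplasmic reticulum bind newly made secreted and membrane proteins and hold them until they are folded. Collagen is one of their heaviest clients in fibroblasts and myofibroblasts, and its triple helix needs a chaperone of its own, HSP47, which Serpinh1 encodes. When unfolded proteins build up, the transcription factors ATF6 and XBP1 raise many of the general chaperones through a shared promoter element, the ER stress response element.

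The libraries differed in depth, and the library labelled 0 h differed in kind. The libraries of 0 h, 6 h, 12 h and 24 h held 106826, 778793, 5687966 and 6166324 counts in 192, 658, 1120 and 1328 barcodes, and no barcode sequence occurred in more than 1 library. The level that 3 counts stand for, the limit allowed by a count of 0, was 28.1, 3.85, 0.527 and 0.487 CPM in that order. Barcodes with 3000 or more counts numbered 42 at 6 h, 637 at 12 h and 701 at 24 h and held 66.3%, 90.1% and 90.1% of the counts. The library labelled 0 h had none. Its 13 proximal tubule markers summed to 18357 CPM, against 2.57, 1.93 and 3.57 CPM in the treated libraries, while its mesenchymal markers summed to 46.8 CPM, with counts of 3 of the 12 measured, against 7686, 12670 and 14086 CPM. That library therefore went against its label, and Gli1 was not in the table. Values from it are given once and used in no comparison of time.

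The promoters of the members are shown first, because the shared stress element is the best known link between the general chaperones. The element was searched as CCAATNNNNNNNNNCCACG on both strands of the window from 250 bases before to 50 bases after each gene's start (RefSeq, GRCm38.p6). All 10 members matched to a window by symbol. It was present in 39 of 32851 windows of all genes (0.119%) and in those of Hspa5, Hsp90b1, Calr, Canx and Pdia6. The matched stretches are given here as read on the strand of the gene, with all letters of the match in capitals; those of Calr and the second of Hsp90b1 lie on the opposite strand.
Hspa5, bases -65 to -47: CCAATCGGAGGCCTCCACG
Hsp90b1, bases -212 to -194: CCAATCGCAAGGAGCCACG
Hsp90b1, bases -107 to -89: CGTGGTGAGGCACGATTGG
Calr, bases -162 to -144: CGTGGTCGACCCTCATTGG
Canx, bases -145 to -127: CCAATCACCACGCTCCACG
Pdia6, bases -98 to -80: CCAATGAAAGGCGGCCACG

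The windows of Pdia3, Pdia4, P4hb, Sdf2l1 and Serpinh1 held no such run of letters. The pentamer CCAAT, which begins the element, occurred 1 to 6 times on either strand in the windows of the 9 general chaperones and in that of Serpinh1 0 times. A second stress element (ATTGGNCCACG, found in 12 windows or 0.0365%), the core TGACGTGG of the XBP1 site (222 windows, 0.676%) and the heat shock unit GAANNTTC (2582 windows, 7.86%) were found in no member. A match is a description of letters, and its absence says only that these letters are not in this window. The 3 whole windows given here are those of Hspa5 at chr2:34771840-34772139 (+ strand), with the element in capitals, and of the members that were called higher at 12 h than at 6 h, P4hb at chr11:120573204-120573503 (- strand) and Serpinh1 at chr7:99353190-99353489 (- strand), in which nothing is in capitals because no searched element matched.
Hspa5 promoter: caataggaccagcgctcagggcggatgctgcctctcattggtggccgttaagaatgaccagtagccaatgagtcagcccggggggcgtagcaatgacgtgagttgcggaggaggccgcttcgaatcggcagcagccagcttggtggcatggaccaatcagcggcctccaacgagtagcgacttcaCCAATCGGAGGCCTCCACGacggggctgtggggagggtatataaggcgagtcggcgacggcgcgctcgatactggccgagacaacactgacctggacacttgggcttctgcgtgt
P4hb promoter: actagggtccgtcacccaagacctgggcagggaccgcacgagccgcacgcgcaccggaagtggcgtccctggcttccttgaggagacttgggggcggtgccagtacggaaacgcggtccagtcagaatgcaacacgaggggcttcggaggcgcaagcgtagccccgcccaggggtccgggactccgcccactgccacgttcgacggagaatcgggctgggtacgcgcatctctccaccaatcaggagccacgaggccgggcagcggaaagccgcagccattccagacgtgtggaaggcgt
Serpinh1 promoter: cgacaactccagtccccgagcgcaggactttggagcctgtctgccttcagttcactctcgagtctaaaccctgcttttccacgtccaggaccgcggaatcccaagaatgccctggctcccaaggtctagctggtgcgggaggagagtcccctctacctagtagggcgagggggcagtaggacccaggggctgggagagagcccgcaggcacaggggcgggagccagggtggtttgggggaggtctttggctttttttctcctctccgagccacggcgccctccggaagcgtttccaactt

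In the library labelled 0 h the 10 members had 74 counts in all. Hsp90b1 had 30 counts, Hspa5 14, P4hb 9, Pdia6 7, Canx 5, Calr 3, Serpinh1 3, Pdia3 2, Pdia4 1 and Sdf2l1 none. These are 281 CPM (190 to 401) for Hsp90b1 and 28.1 CPM (5.79 to 82.1) for Serpinh1. All 8 general chaperones that could be called were at least 1.5-fold higher in the 6 h library, beside 53% of all 2832 genes that passed the level limit explained below, and none was lower, beside 37.4%. Since the 0 h library held tubule transcripts, this count describes the contents of the 2 libraries.

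The chaperones that bind exposed stretches of unfolded protein come first. Hspa5 encodes BiP, the HSP70 of this compartment which also holds the sensors of the unfolded protein response inactive. The gene lies at chr2:34771970-34777547 on the + strand (GENCODE M21, GRCm38). The RefSeq start used for its promoter window lies inside this span, and so does the matched element. It had 689, 6650 and 6377 counts at 6, 12 and 24 h, which are 885 (820 to 953), 1169 (1141 to 1198) and 1034 CPM (1009 to 1060). The 12 h level stood above both others, and the 3 intervals of counting error did not overlap. The ratio was 1.32 (1.22 to 1.43) at 12 h against 6 h and 0.885 (0.855 to 0.916) at 24 h against 12 h.

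Hsp90b1 encodes GRP94, the HSP90 of this compartment, which folds integrins and growth factors. At 6, 12 and 24 h its level was 2183 (2080 to 2289), 2038 (2001 to 2076) and 2095 CPM (2059 to 2131), a narrow range over all barcodes. Its 12 h level was slightly lower than that at 6 h, with a ratio of 0.934 (0.887 to 0.983), while the other 8 well-counted members had ratios above 1, that of Calr within counting error. This direction turned without the 2% of barcodes with the most counts, to a ratio of 1.10 (1.03 to 1.18), and over barcodes under 1000 counts, to 1.58 (1.30 to 1.91). Over barcodes with 3000 or more counts it was kept, with a ratio of 0.756 (0.714 to 0.799). At 6 h the level was 2703 CPM in barcodes with 3000 or more counts and 1122 CPM in those under 1000. In the annotation Hsp90b1 shares a 3′ stretch with Gm15344 on its own strand and overlaps 1810014B01Rik on the other. Those genes had at most 2 and 49 counts in any library, against 12917 for Hsp90b1 at 24 h. Exons of Pdia3 and Pdia6 overlap Catsper2 and Atp6v1c2 on the opposite strand, which had at most 39 and 59 counts. Whether strand was used in counting is not stated, so these small counts cannot be assigned with certainty.

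Sdf2l1, a partner that steadies BiP and its cochaperones on their clients, had 13, 69 and 102 counts at 6, 12 and 24 h. These are 16.7 (8.89 to 28.5), 12.1 (9.44 to 15.4) and 16.5 CPM (13.5 to 20.1), and the intervals overlapped. With 13 counts at 6 h a difference was not detectable at this depth, since the ratio of 0.727 at 12 h against 6 h had an interval of 0.398 to 1.43.

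The lectin chaperones bind sugar chains on glycoproteins. Calr encodes calreticulin, the soluble lectin, and was, among the 9 well-counted members, the one with the largest ratio of 24 h to 12 h. Its level was 1129 (1055 to 1206), 1142 (1114 to 1170) and 1464 CPM (1434 to 1494) at 6, 12 and 24 h. Levels at 6 and 12 h overlapped and the 24 h level was above both. The ratio was 1.01 (0.943 to 1.09) at 12 h against 6 h and 1.28 (1.24 to 1.32) at 24 h against 12 h, short of the 1.5-fold limit.

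Canx encodes calnexin, the membrane-bound lectin that works in the same cycle. It had 1039 (968 to 1113), 1320 (1290 to 1350) and 1223 CPM (1195 to 1251) at 6, 12 and 24 h. It was highest at 12 h, with a ratio of 0.926 (0.897 to 0.957) at 24 h against 12 h. With TMM scaling or DESeq2 size factors its log2 ratio in that step was 0.013 or 0.020 instead of -0.11, the median of all genes on the reported scale being also -0.11. Pdia3 encodes ERp57, the disulfide isomerase that both lectins recruit, and had 817 (754 to 883), 1022 (996 to 1048) and 869 CPM (846 to 892). It too was highest at 12 h, and its levels at 6 and 24 h overlapped.

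The remaining protein disulfide isomerases make and reshuffle disulfide bonds. Pdia4, or ERp72, had 159 (132 to 190), 205 (193 to 217) and 162 CPM (152 to 172) at 6, 12 and 24 h. Pdia6, which also binds BiP and damps stress signalling, had 334 (294 to 377), 447 (430 to 465) and 424 CPM (408 to 440). Both were highest at 12 h, though the 12 and 24 h intervals of Pdia6 overlapped, and the ratio of Pdia4 at 24 h against 12 h was 0.790 (0.725 to 0.860).

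P4hb encodes protein disulfide isomerase itself, which is also the β-subunit of the prolyl 4-hydroxylase that stabilises collagen. The gene lies at chr11:120560298-120573253 on the - strand. It had 233, 2983 and 3139 counts at 6, 12 and 24 h, which are 299 (262 to 340), 524 (506 to 544) and 509 CPM (491 to 527). Levels at 12 and 24 h overlapped and both were well above that at 6 h. The ratio was 1.75 (1.53 to 2.01) at 12 h against 6 h and 0.971 (0.923 to 1.02) at 24 h against 12 h. With TMM or DESeq2 scaling the log2 ratio of 24 h to 12 h turned to 0.079 or 0.086 for P4hb, where it had been -0.042, and to 0.044 or 0.051 for Pdia6, where it had been -0.077.

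Serpinh1, whose product HSP47 binds folded procollagen and leaves it on the way to the Golgi, lies at chr7:99345376-99353239 on the - strand. It had 143, 1820 and 1760 counts at 6, 12 and 24 h. These are 184 (155 to 216), 320 (305 to 335) and 285 CPM (272 to 299). On the CPM scale the 12 h level was the highest of the 3, and no pair of intervals overlapped. Its log2 ratio of 24 h to 12 h was -0.16, beside a median of -0.11 over all genes. The step from 12 h to 24 h was thus near that of all genes on this scale, at a percentile of 42.1. The ratio was 1.74 (1.47 to 2.08) at 12 h against 6 h, 0.892 (0.835 to 0.953) at 24 h against 12 h and 1.55 (1.31 to 1.86) at 24 h against 6 h. No single barcode carried these values, since the barcode with the most Serpinh1 counts held 6.29%, 0.769% and 0.739% of them in the 3 libraries. The 6 h value did rest on few barcodes. Without the 2% of barcodes with the most counts, 13 at 6 h, 76 of its 143 counts stayed. The ratio of 12 h to 6 h was then 2.07 (1.64 to 2.63).

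**Figure D1:**
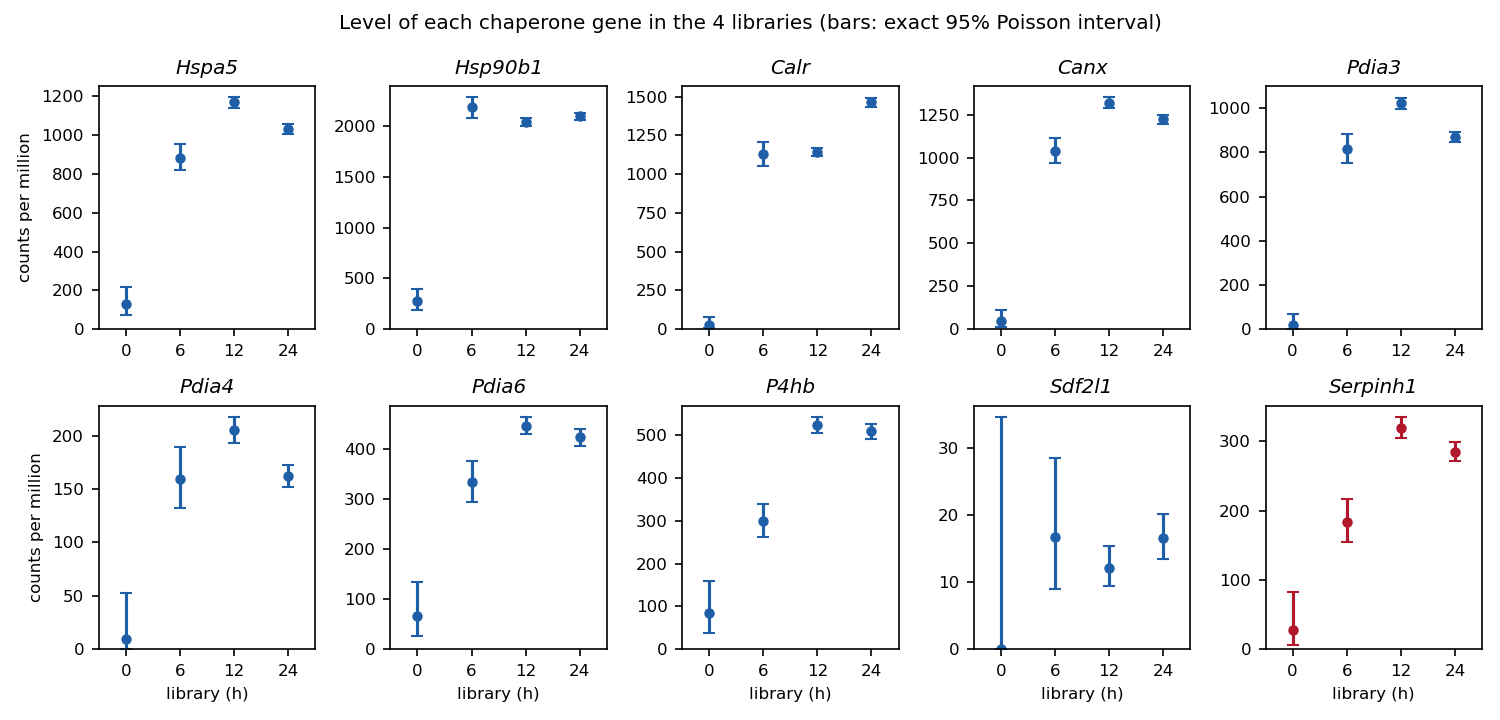
CPM of each member on linear axes from 0, in the libraries of 0, 6, 12 and 24 h, with the exact 95% Poisson interval of 1 library as bar; Serpinh1 is in red and the 9 general chaperones in blue. Calr is highest at 24 h with 1464 CPM, and Hspa5, Canx, Pdia3, Pdia4, Pdia6, P4hb and Serpinh1 are highest in CPM at 12 h. The 12 h and 24 h intervals of Pdia6 and P4hb overlap. With TMM or DESeq2 scaling the order of 12 h and 24 h turned for Canx, Pdia6 and P4hb. The 0 h library, which holds tubule transcripts, is low for all members that were counted well.

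A gene was called when it was at least 1.5-fold apart on the scale of log2(CPM + 10) and reached 100 CPM in 1 library or both. At 12 h against 6 h, 1 of the 8 general chaperones so measured was called higher, P4hb with a log2 ratio of 0.79, beside 16% of 2256 genes, and none was called lower, beside 10.3%. Serpinh1 was called higher with a log2 ratio of 0.77, a percentile of 90.7 among those genes. The median log2 ratio of the 8 measured general chaperones was 0.34, beside 0.15 over 6355 genes with a mean of 20 CPM or more. A count of 1 in 8 is no higher than the share of all genes.

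At 24 h against 12 h no general chaperone was called in either direction, beside 4.38% of 2146 genes called higher and 3.68% lower, and Serpinh1 was not called, at a percentile of 42.1. The median log2 ratio of the general chaperones was -0.09, beside -0.11 over all genes. At 24 h against 6 h P4hb with a log2 ratio of 0.75 and Serpinh1 with 0.61 were called higher, the second not with DESeq2 size factors (0.57), beside 14% of 2166 genes, and none of the 10 was called lower, beside 11.6%. The 12 h and 24 h libraries share the 6 h library as their base in these 2 comparisons, so their values are not separate evidence. With a 2-fold limit no member was called in any of the 3 comparisons, beside 4.79% of genes higher and 4.34% lower at 12 h against 6 h, 1.35% and 0.699% at 24 h against 12 h, and 4.99% and 4.06% at 24 h against 6 h.

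The values at 6 h depended on which barcodes were counted. Its barcodes with under 1000 counts, which hold 201441 counts in all, had 59.6 CPM of Serpinh1 (30.8 to 104), 397 CPM of Hspa5 (315 to 494) and 4016 CPM of the 9 general chaperones together (3744 to 4303). Its barcodes with 3000 or more counts had 246 CPM of Serpinh1 (205 to 293), 1135 CPM of Hspa5 (1045 to 1230) and 8278 CPM of the 9 together (8031 to 8530). At 12 h the same classes differed less, with 211 CPM (138 to 309) of Serpinh1 in barcodes under 1000 counts and 324 CPM (309 to 340) in those with 3000 or more.

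Among barcodes with 3000 or more counts Serpinh1 was therefore nearer between libraries, with 324 CPM in the 12 h library and 246 CPM in the 6 h library, a ratio of 1.32 (1.10 to 1.59), with a log2 ratio of 0.39 that was not called. For P4hb the 12 h library had 531 CPM and the 6 h library 364 CPM, a ratio of 1.46 (1.26 to 1.70), with a log2 ratio of 0.53, also not called. Hspa5 had a ratio of 1.04 (0.951 to 1.13), Calr of 0.891 (0.822 to 0.967) and Hsp90b1 of 0.756 (0.714 to 0.799) in these barcodes. P4hb and Serpinh1 still had the largest ratios of the 10, and the median log2 ratio of the general chaperones was 0.085, beside 0.10 over all genes. With the limit at 1000 counts P4hb was called with a log2 ratio of 0.64, beside 14.3% of 2271 genes called higher, and Serpinh1, with 0.49, was not. For 24 h against 6 h the log2 ratio of Serpinh1 was 0.32 over barcodes of 1000 or more counts and 0.24 over those of 3000 or more, neither called. That of P4hb was 0.59, called beside 12.7% of 2192 genes called higher, and 0.48, not called. When each barcode with 1000 or more counts weighed the same, both were called, with 1.20 for P4hb and 0.90 for Serpinh1. The share of all genes called was not computed with that weighting, so these calls have no background and are not read as a result. The part of the shallow barcodes of 6 h in the ratios over all barcodes was not tested beyond these values.

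**Figure D2:**
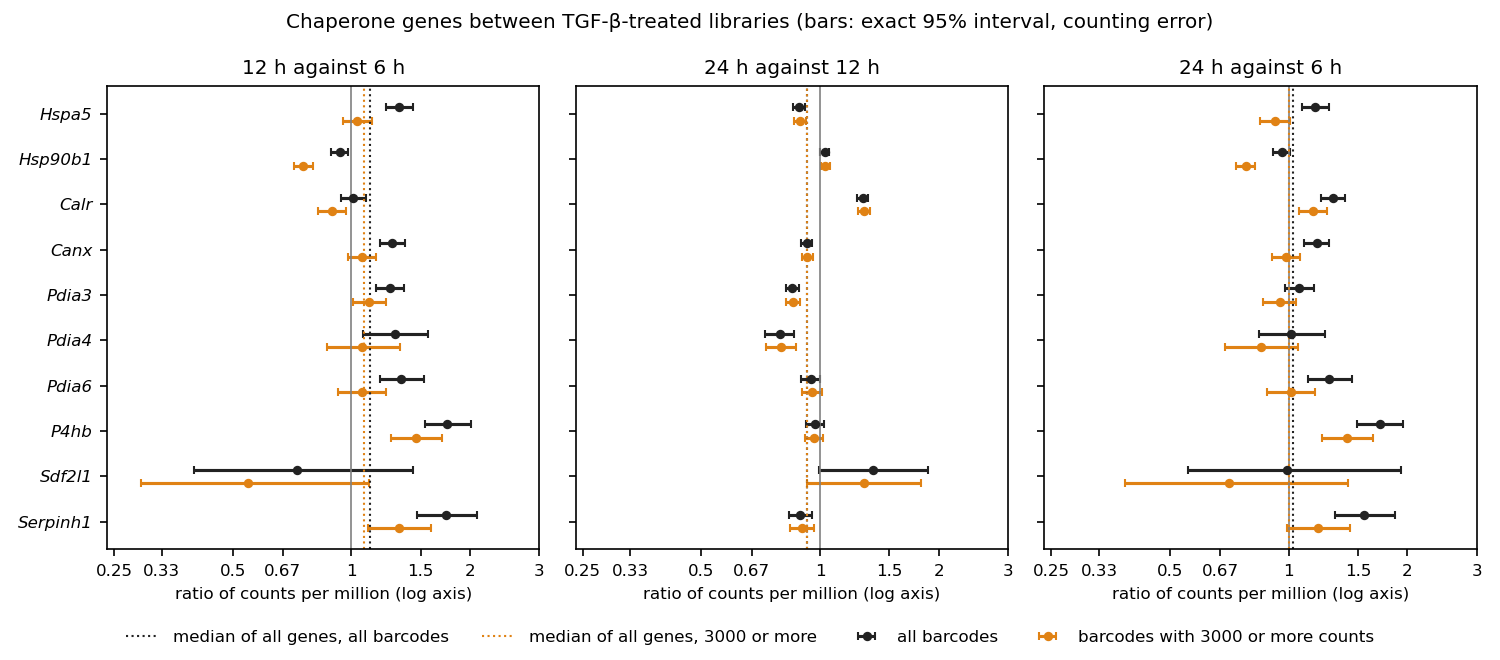
Ratios of CPM on log axes for 12 h against 6 h, 24 h against 12 h and 24 h against 6 h, over all barcodes (black) and over barcodes with 3000 or more counts (orange), with exact 95% intervals of counting error as bars and the median of all genes (from log2 of CPM + 10) as dotted lines. Serpinh1 has 1.74 over all barcodes and 1.32 over the deep ones at 12 h against 6 h, while at 24 h against 12 h both sets of barcodes give nearly the same ratios.

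The comparison of the collagen chaperone with the general ones was made on counts within a library, which does not depend on how libraries are scaled. Serpinh1 made up 2.61% (2.20 to 3.06) of the counts of the 10 members at 6 h, 3.90% (3.73 to 4.08) at 12 h and 3.53% (3.37 to 3.70) at 24 h. The share was higher at both later times than at 6 h, and the 24 h share was below the 12 h share. At 0 h it was 4.05% (0.844 to 11.4) of 74 counts, an interval that covers all 3 others.

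Relative to the 9 general chaperones together, Serpinh1 was 1.52-fold higher (1.28 to 1.82) at 12 h than at 6 h, 1.37-fold higher (1.15 to 1.64) at 24 h than at 6 h, and 0.902 (0.843 to 0.964) at 24 h against 12 h. In barcodes with 3000 or more counts the first of these was 0.47 on the log2 scale, beside 0.60 over all barcodes. Set against single genes at 12 h against 6 h, the interval of Serpinh1 lay above 1 for 8 of the 9. The ratio was 1.87 (1.56 to 2.25) against Hsp90b1, 1.72 (1.43 to 2.09) against Calr and 1.32 (1.09 to 1.60) against Hspa5. The exception was P4hb, for which it was 0.994 (0.797 to 1.24). These ratios share the counts of Serpinh1 and are not independent of each other. The log2 ratio of Serpinh1 in this step stood at a percentile of 90.7 among 2256 genes. Serpinh1 thus rose relative to most genes, and the count of 8 in 9 is not particular to chaperones. Intervals against single genes were computed over all barcodes only.

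In the step of 24 h against 12 h the interval lay below 1 for 4 of the 9 and above 1 for 1. Among 2146 genes Serpinh1 stood at a percentile of 42.1 in that step. Serpinh1 was 0.696 (0.646 to 0.749) relative to Calr and 0.868 (0.809 to 0.932) relative to Hsp90b1, and 1.13 (1.01 to 1.26) relative to Pdia4. Against Hspa5 it was 1.01 (0.936 to 1.09).

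Set against its clients, Serpinh1 was lower at 12 h than at 6 h for the main fibrillar collagens. It was 0.693 (0.542 to 0.887) relative to Col1a1 and 0.654 (0.543 to 0.792) relative to Col1a2, the 2 chains of type I collagen, and 0.272 (0.162 to 0.436) relative to Col3a1, the chain of type III collagen. Col1a2 itself had 2672 CPM at 12 h, against 1003 CPM at 6 h, and Col3a1 had 173 CPM, against 27.0 CPM. Of the 16 collagens that could be set against it, the interval lay below 1 for 4 and above 1 for 2, Col11a1 and Col12a1. From 12 h on, the ratio of 24 h to 12 h was 0.360 (0.326 to 0.398) relative to Col3a1, 0.728 (0.679 to 0.780) relative to Col1a2 and 0.930 (0.854 to 1.01) relative to Col1a1. In that step the interval lay below 1 for 6 of 18 collagens and above 1 for 4, among them Col6a1 at 1.38 (1.11 to 1.73) and Col7a1 at 1.65 (1.34 to 2.03).

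**Figure D3:**
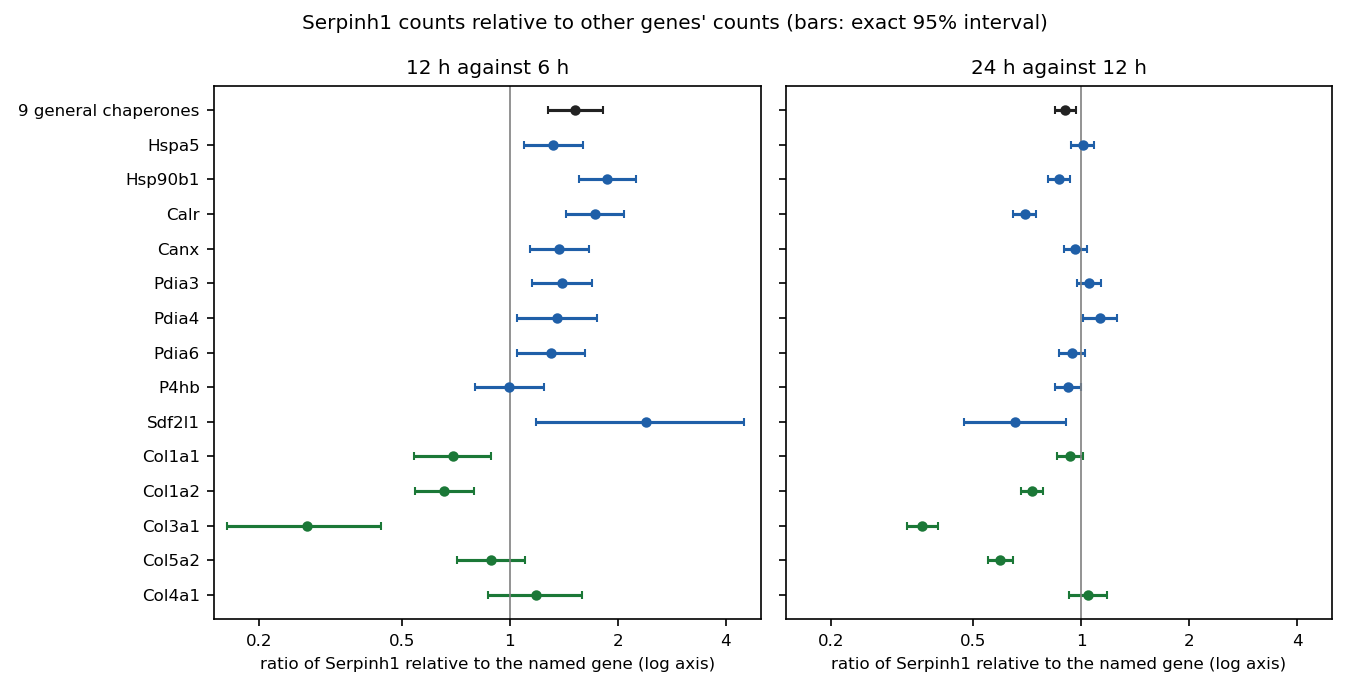
Ratio of Serpinh1 counts to the counts of each named gene, 12 h against 6 h and 24 h against 12 h, on log axes with exact 95% intervals; the 9 general chaperones are in blue, their sum in black and 5 collagens in green. At 12 h against 6 h Serpinh1 lies above 1 relative to all blue genes except P4hb at 0.994 and below 1 relative to Col1a1, Col1a2 and Col3a1.

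Within a library, the members differed in how unevenly barcodes carried them. The variance between barcodes with 3000 or more counts was divided by that of counting error alone. At 12 h it was 3.00 for Hspa5, 3.02 for Hsp90b1 and 2.45 for Calr, against 1.18 for Canx and 1.54 for Pdia3. The 80 genes between 800 and 2500 CPM had a median of 1.62 (quartiles 1.37 and 2.36), so Canx lay at the 5th percentile of genes of like level and Hspa5 at the 87.5th. At 24 h the values were 2.92 for Hspa5, 2.43 for Hsp90b1, 2.13 for Calr and 1.33 for Canx, which was again the lowest of these 4 but stood at a percentile of 22.1, with Hspa5 at 85.7. Among genes between 150 and 600 CPM, with medians of 1.15 at 12 h and 1.14 at 24 h, Serpinh1 had 1.28 and 1.15 (percentiles of 79.3 and 56.3), P4hb 1.19 and 1.22 (62.1 and 72.7) and Pdia6 1.45 in both (90.3 and 91.6). Among these barcodes the quartiles of Serpinh1 were 1.42 and 4.58 counts per 10000 at 12 h and 1.26 and 4.30 at 24 h.

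Pairs of members were compared by Pearson's r of log2(1 + counts per 10000) over the 637 barcodes of 12 h and the 701 of 24 h. These points share a library and differ in depth, and sparse counts pull r towards 0, so r is a description with no p. Ranked by the lower r of the 2 libraries, the first of the 36 pairs of well-counted members was Hspa5 with Calr, with r of 0.36 at 12 h and 0.38 at 24 h, followed by Hsp90b1 with Calr at 0.32 and 0.34 and Hspa5 with Hsp90b1 at 0.36 and 0.29. Hsp90b1 with Pdia3 had 0.32 and 0.20, and Hsp90b1 with Pdia6 0.26 and 0.18. Of the 36 pairs, 14 had r of 0.1 or more in both libraries, while 3.78% of all pairs of 1717 genes passed that value at 12 h and 2.74% at 24 h. The median r was 0.12 at 12 h and 0.10 at 24 h over the 36 pairs, beside 0.014 over all pairs of genes in each library. Each share of all pairs is for 1 library alone, while the 14 pairs passed in both. The 1717 genes were not matched to the members in level, so the part of level in this difference was not tested. Canx had 0.05 and 0.02 with Hspa5 but 0.22 and 0.10 with Hsp90b1, and P4hb had 0.07 and 0.11 with Hspa5.

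Serpinh1 had r of 0.14 at 12 h and 0.15 at 24 h with P4hb, 0.17 and 0.14 with Pdia6, and 0.14 and 0.22 with Calr, against 0.00 and 0.04 with Canx. The 6 genes ranked as most like Serpinh1 by the lower r of the 2 libraries were Sparc, a collagen-binding protein of the matrix, at 0.20, Col1a2 at 0.19, Loxl2, which crosslinks collagen, at 0.18, Actb, cytoplasmic actin, at 0.17, Col11a1 at 0.17 and Tpm4, a tropomyosin, at 0.16. The 6 most like Hspa5 were Calr at 0.36, Actb at 0.34, Hsp90b1 at 0.29, Sparc at 0.28, Pdia6 at 0.24 and Cnn2, a calponin, at 0.23, of which 3 are members. Actb and Sparc stood in both rankings. After thinning each barcode to 3000 counts 4 of the 6 stayed in each ranking and the highest r became 0.14 for Serpinh1 and 0.25 for Hspa5. Over barcodes of 5000 or more counts Calr, a general chaperone, ranked 4th for Serpinh1 at 0.21, and 2 of the 6 most like Hspa5 were members. All r of Serpinh1 are weak.

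**Figure D4:**
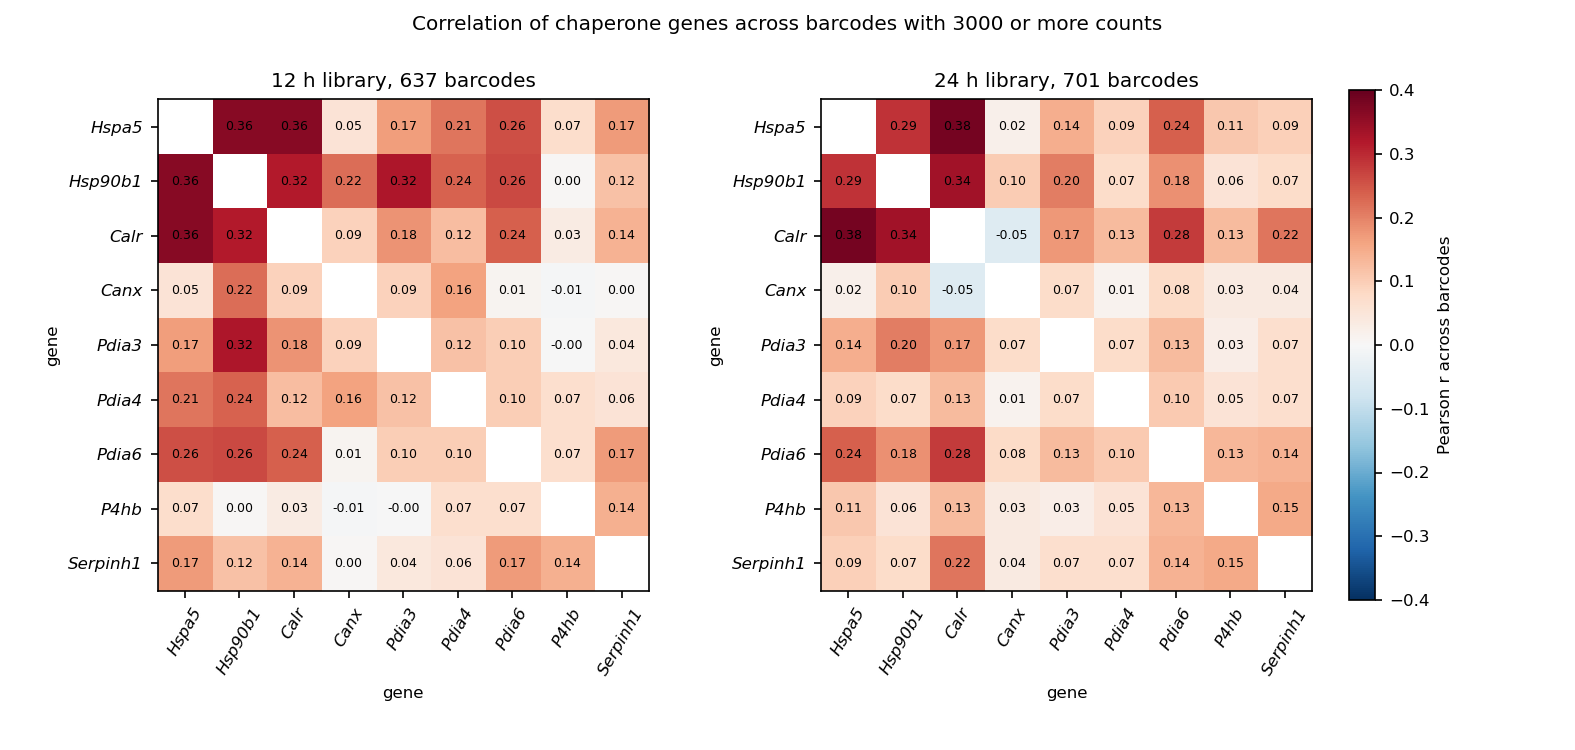
Pearson r between members across barcodes with 3000 or more counts in the 12 h library (637 barcodes) and the 24 h library (701 barcodes), as colour and number; Sdf2l1 had too few counts and is left out. The cells of Hspa5 with Calr (0.36 and 0.38) and with Hsp90b1 (0.36 and 0.29) are dark in both libraries, and those of Canx with Serpinh1 (0.00 and 0.04) are pale.

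Barcodes were also split by genes of cell state, with the classes of barcodes taken from these data and so described only. At 12 h, the 120 barcodes of 1000 or more counts with 0.1% or more of them in genes of the G2 and M phases had 266 CPM of Serpinh1 (229 to 307), against 331 CPM (315 to 347) in the 745 with less. Their Serpinh1 share among the 10 members was 3.13% (2.70 to 3.60), against 4.04% (3.85 to 4.24). The 6 h library had the same direction within its counting error, with 206 CPM (148 to 280) in 28 such barcodes, against 238 CPM (191 to 292) in the 52 others, and at 24 h 11 such barcodes had 178 CPM (88.9 to 319), against 287 CPM (273 to 301) in 922. The G2 and M list took 0.279%, 0.0845% and 0.0171% of all counts at 6, 12 and 24 h. Leaving such barcodes out gave Serpinh1 a log2 ratio of 0.46 at 12 h against 6 h, beside 0.49 with them.

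Acta2 and Col3a1, markers of the myofibroblast state, split the deep barcodes further. Among those of 3000 or more counts at 24 h, the 400 with a count of Acta2, the smooth muscle actin of myofibroblasts, had 320 CPM of Serpinh1 (301 to 339), against 244 CPM (223 to 267) in the 301 without. The 9 general chaperones together were also higher, with 8251 CPM (8156 to 8347) against 7134 CPM (7019 to 7251), and the Serpinh1 share was 3.73% (3.52 to 3.95) against 3.31% (3.03 to 3.61). Barcodes with Acta2 were deeper, with a median of 7725 counts against 5709, and the part of depth was not tested. At 12 h the 215 barcodes with Acta2 had 356 CPM of Serpinh1 (330 to 383), against 304 CPM (285 to 324) in 422 without, but the Serpinh1 shares overlapped, with 4.11% (3.82 to 4.42) against 3.84% (3.60 to 4.08). At 6 h there were 262 CPM (215 to 315) in 32 barcodes with Acta2, against 177 CPM (103 to 283) in 10 without. The 9 general chaperones together had 8303 CPM with Acta2 at 12 h, against 7630 CPM without. Their direction was the other way at 6 h, with 8200 CPM (7928 to 8478) against 8619 CPM (8042 to 9226), where the intervals overlapped. A split by Col3a1 at 24 h gave 300.1 CPM of Serpinh1 (285 to 316) in 567 barcodes with a count, against 238 CPM (204 to 276) in 134 without, again with more counts per barcode in the first, 7277 against 4570.5. At 12 h the Col3a1 split gave 336 CPM (316 to 357) in 356 barcodes, against 305 CPM (281 to 331) in 281, and at 6 h 263 CPM (199 to 340) in 14, against 234 CPM (182 to 295) in 28, so at those times the intervals overlapped.

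The genes around these chaperones were read from lists of the same compartment. At 12 h against 6 h the median log2 ratio was 0.39 over 12 measured cochaperones of BiP, with 3 called higher on the fold alone, 0.56 over 16 disulfide and prolyl isomerases outside the members, with 6 higher, and 0.54 over 14 genes of glycan attachment and the lectin cycle, with 5 higher. It was 0.37 over 12 genes of ER-associated degradation, with 4 higher, and 0.71 over 10 sensors and factors of the unfolded protein response, with 6 higher. None of these 5 lists held a gene lower by that limit. Over all 6355 genes with a mean of 20 CPM, 1073 were higher, 462 were lower and the median was 0.15. Over the barcodes of 3000 or more counts these medians were 0.27, 0.38, 0.32, 0.24 and 0.50 in the same order of lists, beside 0.10 for all genes. There 2 of 12, 4 of 16, 2 of 14, 2 of 12 and 5 of 10 were higher and none lower. Of all 6466 genes in those barcodes 961 were higher and 527 lower, and the counts of 2 are near that share.

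Fkbp10, a prolyl isomerase that works on procollagen, had a log2 ratio of 1.21 at 12 h against 6 h, Fkbp9, a related isomerase, 0.89, and Cnpy2 0.79. Dnajb11, a cochaperone that feeds clients to BiP, had 0.74 and Hyou1, its nucleotide exchange factor, 0.57 from 12 counts at 6 h. Rpn2 and Ddost, subunits of the enzyme that attaches glycans, had 0.82 and 0.75. Os9, a lectin of degradation, had 0.69. Ppib, the cyclophilin of collagen folding, had 0.56 and Manf, a secreted stress protein, 0.08.

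The largest log2 ratios among the stress factors were those of Nupr1 and Creb3l2. Nupr1, a stress-induced chromatin protein, had a log2 ratio of 2.17 at 12 h against 6 h and Creb3l2, a factor of secretory capacity, 1.05. Xbp1 had 0.73, from 400 counts at 12 h and 30 at 6 h, at 70.3 and 38.5 CPM and so under the level limit. Atf4 had -0.15, Ddit3, which encodes CHOP, -0.07, Herpud1, a gene of the degradation arm, 0.23, and Dnajb9, a target of XBP1, 0.03. The last 3 were under 30 CPM in both libraries.

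At 12 h against 6 h the 19 measured genes of collagen modification and export had a median of 0.56, with 9 higher and 1 lower, and the 12 collagens with a mean of 20 CPM had 1.02, with 9 higher and none lower. Over the barcodes of 3000 or more counts the first list had 0.30, with 5 higher and 1 lower, and the collagens had 0.71, with 6 higher and none lower. Of all 6466 genes measured in those barcodes, 961 were higher and 527 lower. Plod2, which hydroxylates lysines of collagen, had 1.18, Kdelr2, the receptor that returns chaperones from the Golgi, 1.16, and P4ha1, the catalytic partner of P4hb, 0.91. The level of Plod2 was 254 CPM at 12 h, against 107 CPM at 6 h. P4ha2, the other catalytic chain, had 0.40, and Crtap, part of the complex that modifies collagen prolines, -0.09. Serpinh1 at 0.77 stood between the median of this list and that of the collagens.

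Cytosolic heat shock genes did not share this direction. The 13 measured had a median of -0.09, with 1 higher and 3 lower. Over all 6355 genes the median was 0.15, with 1073 higher and 462 lower. Among the 3 lower were 2 small heat shock genes. Hspb1 had 62.4 CPM at 12 h, against 135 CPM at 6 h, and Cryab had a log2 ratio of -0.66. The translocon and signal peptidase list had a median of 0.13 over 17 genes, with Sec61a1, the channel subunit, at 0.74 and Sec61g, its small subunit, at -3.53 and at 3.63 in the step of 24 h against 12 h. Sec61g had 408, 26.2 and 439 CPM at 6, 12 and 24 h.

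Between 12 and 24 h the 5 lists of folding, degradation and stress signalling had medians between -0.16 and -0.01, beside -0.11 over all genes, and 1 gene in them was called higher on the fold alone, Nupr1 with 0.70, beside 154 higher and 220 lower of 6469 genes. For the ratio of 24 h to 12 h Fkbp10 had -0.44, Tmx3, a membrane disulfide isomerase, -0.57, Mlec, a glycan-binding lectin, -0.50, and Plod2 -0.31. Spcs3, a signal peptidase subunit, had 0.83 and Col3a1 had 1.26.

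**Figure D5:**
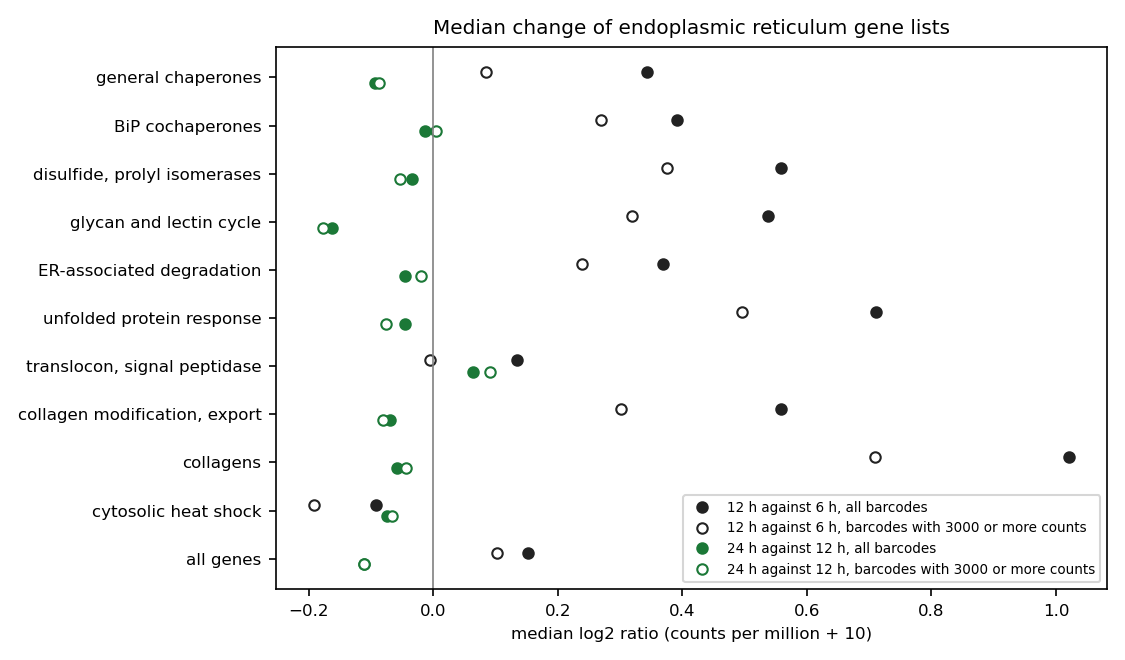
Median log2 ratio of CPM + 10 over the measured members of each list of folding, secretion, collagen and heat shock genes, for 12 h against 6 h (black) and 24 h against 12 h (green), over all barcodes (filled) and over barcodes with 3000 or more counts (open). At 12 h against 6 h the general chaperones have 0.34 over all barcodes and 0.085 over deep ones, below the collagens at 1.02 and 0.71, and at 24 h against 12 h the lists plotted lie between -0.18 and 0.091, beside -0.11 for all genes.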

How the data were processed

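Libraries were made by Drop-seq, which captures single cells with barcoded beads in droplets. The authors deposited a table of raw counts, whole numbers for each gene in each barcode; the unit was read from the values, and the barcode names give the library. The aligner was STAR 2.5.3a and the build mm10, per the submitters' processing notes. The counter, annotation, strand, collapsing of molecular identifiers and barcode filter are not given in these sources, so a count may be a read or a molecule.

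All 3298 barcodes were kept and no doublet caller was run; leaving out the 2% of barcodes with the most counts was an alternative. The counts of a library were added up and expressed as CPM. Log2 ratios carry a pseudocount of 10 CPM, which understates low genes; plain ratios have exact conditional binomial intervals, levels exact Poisson intervals and shares exact binomial (Clopper-Pearson) intervals at 95%. A gene was called at 1.5-fold with 100 CPM or more in either library; list members needed a mean of 20 CPM. No test was made, since each time point had 1 library. Spread and correlations used barcodes with 3000 or more counts. The call rule and intervals were tried on libraries simulated with counting error alone. Such data cannot show how the intervals hold where barcodes differ by more than counting error.

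The members and lists were chosen with earlier results of these data known. Named genes are the members, 18 further genes of the compartment, the 2 largest log2 ratios of each list in 2 comparisons at 100 CPM, and the 6 genes most like Serpinh1 and Hspa5. Col12a1, Col6a1 and Col7a1 were named after their values were seen. Alternatives were TMM (edgeR 4.0.16) and DESeq2 1.42.0 size factors, other totals, pseudocounts of 1 and 50 CPM, limits and barcode sets; barcodes of 3000 or more and of under 1000 counts, and the list without P4hb, were added after seeing the data. Gene positions come from GENCODE M21 and promoter windows from RefSeq (GRCm38.p6). The 2 sources place the start differently for some members, among them Hspa5, Hsp90b1, Pdia3 and Pdia6. Scripts ran in R 4.3.3 and in Python 3.11.15 with scipy 1.17.1, pandas 2.3.3, numpy 2.4.6 and matplotlib 3.10.9.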

Additional observations from a re-analysis of the deposited data

How the results depend on the processing

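No paired analysis was possible because each time point had 1 library and no test was made. The median log2 ratio of the general chaperones depended on the barcodes and scaling. At 12 h against 6 h it was 0.34, and 0.18 with DESeq2 size factors, 0.16 over barcodes with 1000 or more counts, 0.18 over those with 500 genes, 0.14 over those of 1000 counts and under 0.1% G2/M counts, 0.56 without the 2% of barcodes with the most counts, 0.55 with equal weight per barcode, 0.085 over barcodes of 3000 or more counts and 0.84 over those under 1000. At 24 h against 6 h it was 0.23, and 0.020, 0.044, -0.050, 0.42, 0.45, -0.048 and 0.78 under the same barcode settings in the same order. At 24 h against 12 h it was -0.093, and 0.029 with TMM, 0.035 with DESeq2, -0.027 with totals without mitochondrial and ribosomal protein genes and -0.023 under 1000 counts. Against 6 h, 1 general chaperone was called higher at 12 h and 1 at 24 h. These counts were 4 and 2 without the 2% of barcodes with the most counts, 6 and 6 under 1000 counts, 0 and 0 at 3000 or more and with a 2-fold limit, 3 at 12 h with equal weight, and 0 at 24 h at 1000 counts with under 0.1% G2/M counts. At 3000 or more counts the share of all genes called higher was 14% at 12 h and 12.5% at 24 h. That share was not computed without the top 2%, under 1000 counts, with equal weight or with the G2/M limit. The counts under those settings therefore have no background and are not read as a result about the chaperones. The Serpinh1 calls at 12 h and 24 h against 6 h were lost over barcodes with 500 genes (0.52 and 0.35) and with 1000 counts and under 0.1% G2/M counts (0.46 and 0.26). The call at 24 h against 6 h was also lost with DESeq2 (0.57), without mitochondrial and ribosomal protein totals (0.58) and with a pseudocount of 50 (0.52). The log2 of Serpinh1 relative to the general chaperones at 24 h against 12 h, -0.15, reversed to 0.38 under 1000 counts, where it was 1.08 and 1.47 at 12 h and 24 h against 6 h. The Serpinh1 share was 1.46%, 3.05% and 3.94% at 6, 12 and 24 h under 1000 counts, 4.55% and 4.05% at 12 and 24 h without Hspa5, 4.17% and 3.77% without P4hb, 3.31% at 24 h with equal weight, and 0% at 0 h in the stricter barcode sets. The causes were not tested. Depth limits Sdf2l1 and all values of the 0 h library.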
